A study of Homo sapiens with 24 samples.

Results

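The epithelial serpin B proteinase inhibitors comprised 7 genes, SERPINB1, SERPINB3, SERPINB4, SERPINB5, SERPINB7, SERPINB8 and SERPINB13, and were represented by every array probe annotated to one of these symbols. That gave 10 of the 47231 probes on the Illumina expression array, and 9 of the 19171 probes that were tested. Total RNA was compared between erlotinib-resistant and erlotinib-sensitive cultures of 4 established human cell lines of squamous carcinoma of the head and neck. These were the tongue lines SCC-25 and Cal-27, the pharyngeal line FaDu and the laryngeal line SQ20B. Erlotinib blocks the kinase activity of EGFR, the receptor of epidermal growth factor. Each resistant culture had been derived from its parental line and was maintained in erlotinib, while the sensitive culture was the parental line itself. All 8 groups received 0.01% DMSO as vehicle for 48 h, and each was hybridised on 3 arrays. The labels do not say whether erlotinib was still present in the resistant cultures during those 48 h, so resistance, drug exposure and drug withdrawal cannot be told apart. The labels do not say whether the arrays of a group came from separate cultures, so the p-values measure the spread between these arrays. They name 1 resistant culture of each line, so resistance and any other difference between that culture and its parent cannot be told apart.

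Serpins trap proteases with an exposed reactive centre loop: the protease cuts the loop, and the serpin refolds and locks the enzyme in a covalent complex. Clade B serpins lack a classical signal peptide and act mostly inside cells, where they guard against proteases that leak from lysosomes and granules. In stratified epithelia several of them appear as keratinocytes differentiate, and SERPINB3 and SERPINB4 together were long measured in serum as squamous cell carcinoma antigen.

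Array quality lay within these ranges. Replicate arrays correlated at 0.991 to 0.996, the median bead intensity lay between 103 and 119, and 39.5% to 45.0% of probes were detected per array. In SQ20B this share was 44.5%, 44.4% and 45.0% on resistant arrays and 40.7%, 39.8% and 40.6% on sensitive arrays. Resistant arrays also lay above sensitive arrays in FaDu, and the states overlapped in SCC-25 and Cal-27. A probe counted as detected on an array when its detection p, the proportion of control beads without a target that shone as brightly, was under 0.05. Of 7 squamous epithelial marker genes with a probe, 6 were detected on all arrays of every SCC-25, Cal-27 and FaDu group and 5 in both SQ20B groups, where KRT14 was not. Among leukocyte markers with a probe, 1 or 2 of 6 were detected on all arrays of a group, CD14 in every group and CSF1R or ITGAM in some. Between 0 and 3 of 5 fibroblast markers were detected, from among COL1A1, COL1A2, COL3A1 and PDGFRB. The same held for 0 to 2 of 4 endothelial markers (CDH5 and VWF) and 0 to 1 of 3 melanocyte markers (PMEL). The part of these markers in the results was not tested.

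Resistant tongue carcinoma cells had less transcript of most of these serpins. In FaDu and SQ20B fewer of them differed, but SERPINB3 and SERPINB4 were detected on no array there. SCC-25 and Cal-27 were normalized together and apart from FaDu and SQ20B, so tumour site and normalization cannot be told apart. SERPINB5 fell in resistant cells of all 4 lines, and SERPINB7 fell by more than any other member in SCC-25. SERPINB13 fell by more than any other member in Cal-27 but rose in SQ20B. The remaining genes also went opposite ways in different lines. SERPINB3 and SERPINB4 rose in resistant SCC-25 cells and fell in resistant Cal-27 cells. A probe was called when limma's p, adjusted over all 19171 tested probes, was under 0.05. Over the 4 lines 22 of 36 changes were called, 17 of them lower and 5 higher in resistant cells. The 36 are counted by probe in each line, with both tested probes of SERPINB7 and of SERPINB8. Over all tested probes 28%, 31.1%, 38.4% and 51.8% were called in SCC-25, Cal-27, FaDu and SQ20B. Of all tested probes, 14.5% to 25.9% were lower and 13.5% to 25.9% higher in a line. The 22 calls include the SERPINB4 changes in SCC-25 and Cal-27, whose probe entered the test only through the groups in which it was high.

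In SCC-25, 8 of the 9 tested probes were called, 2 higher and 6 lower, where 28% of all tested probes were called, 13.5% higher and 14.5% lower. With median scaling in place of quantile normalization, higher calls over all probes made up 36.0% in place of 48.4% of the called probes in SCC-25. In Cal-27, 1 probe was higher and 7 were lower, with 31.1% of all probes called, 14.8% higher and 16.3% lower. The counts of both tongue lines include SERPINB4, higher in SCC-25 and lower in Cal-27. FaDu had 0 higher and 3 lower, beside 38.4% of all probes called, 18.3% higher and 20.1% lower. SQ20B had 2 higher and 1 lower, beside 51.8% of all probes called, 25.9% higher and 25.9% lower, so the share of member probes called there was below that of the array. The 9 probes had a median log2 change of -1.13 for SCC-25, -1.35 for Cal-27, -0.18 for FaDu and 0.09 for SQ20B, beside medians of -0.00, -0.02, -0.03 and -0.01 over all tested probes. Calls of at least 2-fold numbered 7 for SCC-25, 5 for Cal-27, 1 for FaDu and 0 for SQ20B, beside 3.59%, 5.32%, 5.42% and 13.4% of all probes. The 7 for SCC-25 fall to 6 without SERPINB4, whose fold is known only as a bound. Without background correction the 2-fold calls numbered 2 for SCC-25, 3 for Cal-27, 0 for FaDu and 0 for SQ20B, beside 1.12%, 2.00%, 1.88% and 5.82% of all probes.

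Detection set the limits of these counts. Of the 7 genes, 7 were detected on all 3 resistant arrays and 6 on all 3 sensitive arrays of SCC-25, and 5 and 7 in resistant and sensitive Cal-27 cells. In FaDu only SERPINB1, SERPINB5 and SERPINB13 were detected on all arrays, in resistant and sensitive cells alike, and in SQ20B these and SERPINB7 and SERPINB8. Without background correction all 22 calls held, but 13 of the changes, all in SCC-25 and Cal-27, were smaller by more than 1.5 times. The levels below are normalized log2 intensities, and values of SCC-25 and Cal-27 are on another scale than those of FaDu and SQ20B.

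**Figure D1:**
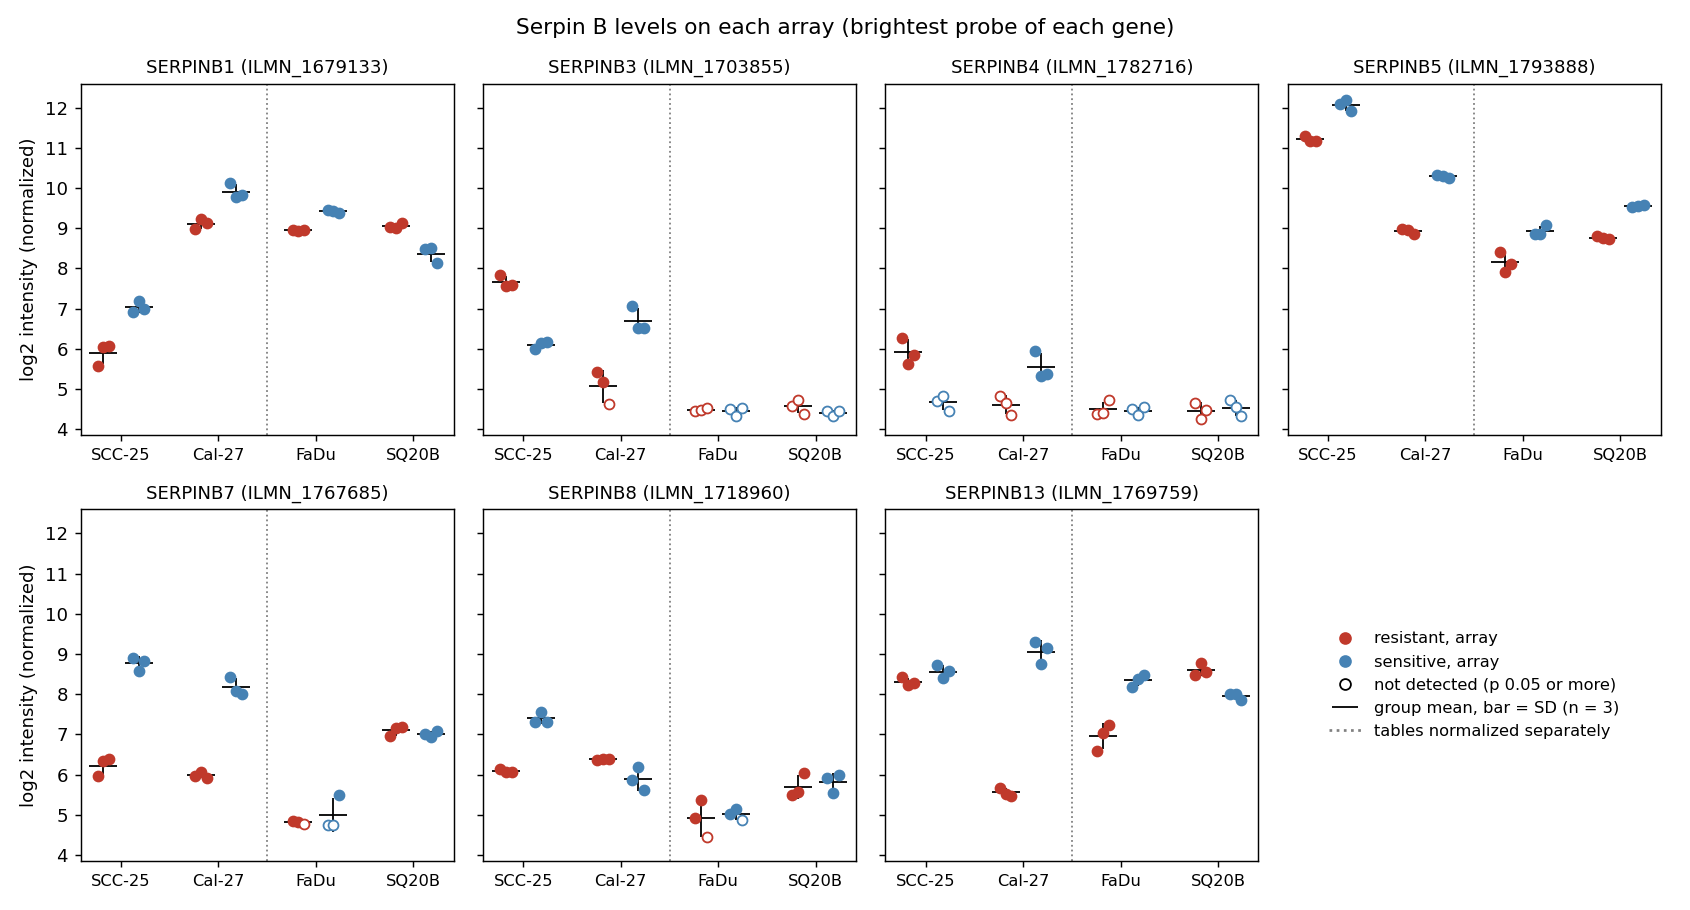
Normalized log2 intensity of the brightest probe of each of the 7 genes (vertical axis) on all 24 arrays, by cell line (horizontal axis), with the resistant arrays in red left of the sensitive arrays in blue. Open points were not detected, black lines give the group mean and SD (n = 3), and the dotted line parts the 2 separately normalized tables. SERPINB5 lies lower in resistant cells of every line, and SERPINB3 and SERPINB4 have no filled point in FaDu or SQ20B.

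**Figure D2:**
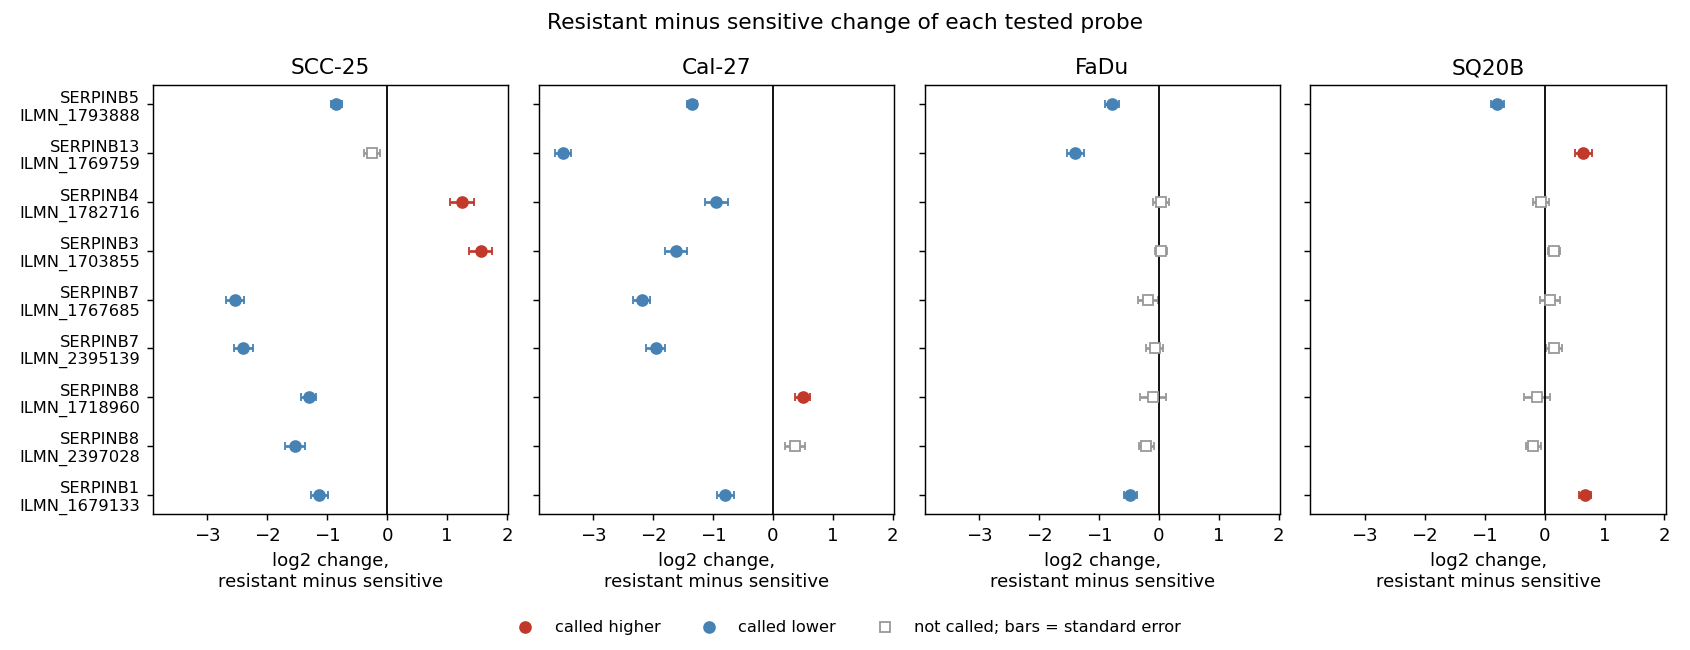
Log2 change, resistant minus sensitive, of the 9 tested probes (rows, in the order of the genes on chromosome 18, with SERPINB1 last), in 1 panel per line, with bars for the standard error. SCC-25 and Cal-27 each have 8 called probes, FaDu and SQ20B 3 each, and only the SERPINB5 row is blue in all 4 panels.

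SERPINB5 encodes maspin, a serpin of epithelial cells that does not inhibit proteases by the usual mechanism and was first described as a tumour suppressor of mammary epithelium. Its probe, ILMN_1793888, gave 11.30, 11.17 and 11.17 in resistant SCC-25 cells and 12.10, 12.18 and 11.91 in sensitive SCC-25 cells. In Cal-27 it gave 8.99, 8.96 and 8.86 in resistant cells and 10.32, 10.30 and 10.25 in sensitive cells. All resistant arrays lay below all sensitive arrays in both lines. The same held in FaDu, with 8.41, 7.92 and 8.12 in resistant cells and 8.87, 8.86 and 9.07 in sensitive cells. SQ20B had 8.80, 8.76 and 8.74 in resistant cells and 9.52, 9.56 and 9.58 in sensitive cells, again without overlap. On the log2 scale SERPINB5 thus fell by 0.85 ± 0.09 in SCC-25 (± standard error from limma; adjusted p = 1.91e-05) and by 1.35 ± 0.09 in Cal-27 (adjusted p = 1.61e-07). The decrease was 0.78 ± 0.12 in FaDu (log2 change -0.78, adjusted p = 0.000162) and 0.79 ± 0.12 in SQ20B (log2 change -0.79, adjusted p = 6.91e-05). As folds, SERPINB5 was 1.80-fold lower in resistant SCC-25 cells, 2.55-fold lower in resistant Cal-27 cells, 1.72-fold lower in resistant FaDu cells and 1.73-fold lower in resistant SQ20B cells. The SERPINB5 level of resistant SCC-25 cells still lay above that of sensitive Cal-27 cells.

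SERPINB3 inhibits lysosomal cysteine cathepsins, among them cathepsins L, S, K and V, and SERPINB4 inhibits chymotrypsin-like serine proteases such as cathepsin G and mast cell chymase. The genes are neighbours on chromosome 18 and nearly identical copies, so the signal of one gene's probe can include transcript of the other, and their values are uncertain in that respect. The likeness extends upstream of the genes. Their promoter windows are shown here because the transcripts moved together, as the 250 bases before the annotated start on the minus strand in RefSeq GRCh38.p14, SERPINB3 at chr18:63661894-63662143 and SERPINB4 at chr18:63644257-63644506, with the bases that differ in capitals:
SERPINB3: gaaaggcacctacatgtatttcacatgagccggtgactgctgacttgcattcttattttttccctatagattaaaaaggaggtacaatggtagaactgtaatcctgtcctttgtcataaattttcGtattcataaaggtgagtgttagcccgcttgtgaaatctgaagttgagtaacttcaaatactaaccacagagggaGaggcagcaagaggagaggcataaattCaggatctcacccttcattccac
SERPINB4: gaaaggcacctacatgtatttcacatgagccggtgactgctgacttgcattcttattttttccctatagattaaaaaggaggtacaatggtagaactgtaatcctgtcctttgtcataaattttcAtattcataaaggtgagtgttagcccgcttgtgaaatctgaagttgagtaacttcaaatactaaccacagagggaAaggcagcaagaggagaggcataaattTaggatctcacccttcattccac
The windows shared 247 of 250 bases (98.8%), and the differences were G126A, G201A and C228T, with the SERPINB3 base first and positions counted from 1 at the 5′ end of the window.

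The brighter SERPINB3 probe, ILMN_1703855, gave 7.84, 7.57 and 7.59 in resistant SCC-25 cells, against 5.99, 6.15 and 6.17 in sensitive SCC-25 cells. In Cal-27 it gave 5.42, 5.18 and 4.62 in resistant cells, the last of them not detected, and 7.05, 6.51 and 6.51 in sensitive cells. The order was therefore turned round between the tongue lines, with no overlap in either. SERPINB3 rose by 1.56 ± 0.19 in SCC-25, 2.95-fold (adjusted p = 5.93e-05), and fell by 1.62 ± 0.19 in Cal-27, 3.07-fold (adjusted p = 2.72e-05). Without background correction these changes were 0.88 and -0.65. In FaDu and SQ20B the probe was detected on no array, with 4.33 to 4.73 on all 12 arrays, near the lowest values of the scale. A second SERPINB3 probe, ILMN_2120222, was detected on 1 of 24 arrays and was not tested. It read 4.96, 5.16 and 4.91 in resistant SCC-25 cells and 4.50, 4.43 and 4.34 in sensitive SCC-25 cells. These SCC-25 groups did not overlap. In Cal-27 the second probe was detected on no array. It read 4.26, 4.33 and 4.26 in resistant cells and 4.54, 4.32 and 4.43 in sensitive cells, which overlapped. The fall of SERPINB3 in Cal-27 thus rests on the brighter probe alone. No fold is given for the second probe.

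SERPINB4 followed the same course on ILMN_1782716. It read 6.26, 5.63 and 5.85 in resistant SCC-25 cells and 4.70, 4.84 and 4.47 in sensitive SCC-25 cells, where it was not detected on any array. In Cal-27 it was not detected in resistant cells, at 4.82, 4.66 and 4.35, and was detected on all 3 arrays of sensitive cells, at 5.95, 5.32 and 5.39. Both comparisons were free of overlap. Resistant cells were at least 1.93-fold higher in SCC-25 (log2 change 1.25 ± 0.20, adjusted p = 0.000411) and at least 1.56-fold lower in Cal-27 (log2 change -0.94 ± 0.20, adjusted p = 0.00253). Without background correction the log2 changes were 0.43 and -0.34, which are smaller than these bounds. The folds are bounds at the background correction used, set against the higher of the dim group's own signal and the lowest signal of any detected probe on each array. The probe was detected on 6 of 24 arrays, those of resistant SCC-25 and sensitive Cal-27 cells, and only through them did it enter the test. No FaDu or SQ20B array detected it. Across the 24 arrays, each centred on its table's mean, the SERPINB3 and SERPINB4 probes correlated at 0.867. These points share lines and tables, and the value is a description.

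SERPINB13, also called headpin or hurpin, inhibits cathepsins L and K and belongs to differentiating squamous epithelium. On ILMN_1769759 resistant Cal-27 cells had 5.67, 5.53 and 5.48 and sensitive Cal-27 cells 9.29, 8.74 and 9.15, the widest gap of any member in any line. There it fell by 3.50 ± 0.14, which is 11.3-fold (adjusted p = 1.69e-09), and stood at -2.17 without background correction. SCC-25 gave 8.42, 8.22 and 8.29 in resistant cells and 8.72, 8.39 and 8.58 in sensitive cells, which overlapped, and the change of -0.25 ± 0.14 was not called (adjusted p = 0.199). In FaDu the levels were 6.60, 7.03 and 7.23 in resistant cells and 8.18, 8.38 and 8.47 in sensitive cells, and SERPINB13 fell by 1.39 ± 0.15 (adjusted p = 1.09e-05). SQ20B went the other way. Resistant SQ20B cells had 8.48, 8.78 and 8.56 and sensitive SQ20B cells 8.00, 8.02 and 7.86, a rise of 0.65 ± 0.15 (adjusted p = 0.00235). Only in SCC-25 did its groups overlap, and SERPINB13 was lower in resistant cells of 2 lines and higher in 1.

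SERPINB1 inhibits neutrophil elastase, cathepsin G and proteinase 3, the serine proteases of neutrophil granules. Its probe, ILMN_1679133, was detected on all 24 arrays. It gave 5.58, 6.05 and 6.06 in resistant SCC-25 cells and 6.92, 7.20 and 6.98 in sensitive SCC-25 cells, and 8.98, 9.22 and 9.14 in resistant and 10.12, 9.78 and 9.82 in sensitive Cal-27 cells. Resistant arrays lay below sensitive arrays in both tongue lines, and sensitive Cal-27 cells were brightest. FaDu had 8.94, 8.94 and 8.95 in resistant cells and 9.45, 9.42 and 9.38 in sensitive cells. SQ20B had 9.02, 9.01 and 9.12 in resistant cells and 8.47, 8.51 and 8.13 in sensitive cells, so that here the resistant arrays were the higher ones. SERPINB1 fell by 1.13 ± 0.14 in SCC-25 (adjusted p = 7.52e-05; -0.55 without background correction), by 0.79 ± 0.14 in Cal-27 (adjusted p = 0.000916) and by 0.47 ± 0.10 in FaDu (adjusted p = 0.00246). It rose by 0.68 ± 0.10 in SQ20B (adjusted p = 8.19e-05).

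SERPINB8 inhibits furin, a protease that activates other proteins in the secretory pathway, and its loss in people causes a peeling skin syndrome. Both of its probes were tested. The brighter one, ILMN_1718960, gave 6.13, 6.08 and 6.07 in resistant SCC-25 cells and 7.32, 7.57 and 7.32 in sensitive SCC-25 cells, and fell by 1.31 ± 0.13 (log2 change -1.31, adjusted p = 7.91e-06). In Cal-27 it gave 6.36, 6.39 and 6.38 in resistant cells and 5.86, 6.18 and 5.62 in sensitive cells, and rose by 0.50 ± 0.13 (adjusted p = 0.0087). Neither comparison overlapped. The second probe, ILMN_2397028, fell by 1.54 ± 0.17 in SCC-25 (adjusted p = 2.22e-05), while in Cal-27 its groups overlapped and 0.37 ± 0.17 was not called (adjusted p = 0.112). Without background correction the brighter probe stood at -0.71 in SCC-25 and 0.21 in Cal-27. In FaDu the brighter probe was detected on 2 of 3 arrays in resistant and in sensitive cells, at -0.10 ± 0.21 (adjusted p = 0.755), and in SQ20B it stood at -0.12 ± 0.21 (adjusted p = 0.674), neither called. The probes correlated at 0.888 over the 24 arrays.

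SERPINB7, or megsin, is strongly expressed in upper epidermis, and its loss in people causes Nagashima-type palmoplantar keratosis. On ILMN_1767685 resistant SCC-25 cells had 5.97, 6.33 and 6.38, against 8.91, 8.56 and 8.82 in sensitive SCC-25 cells. Resistant Cal-27 cells had 5.97, 6.06 and 5.91, against 8.44, 8.07 and 8.00 in sensitive Cal-27 cells. The resistant cells of the tongue lines thus overlapped each other at a level well below both parental cultures. SERPINB7 fell by 2.54 ± 0.14 in SCC-25, 5.81-fold (adjusted p = 7.2e-08), and by 2.19 ± 0.14 in Cal-27, 4.56-fold (adjusted p = 1.35e-07). Without background correction the changes were -1.66 and -1.30. The second probe, ILMN_2395139, fell by 2.40 ± 0.16 and 1.96 ± 0.16 in SCC-25 and Cal-27 (adjusted p = 2.63e-07 and 8.26e-07). Its changes were -1.24 and -0.93 without background correction. The probes correlated at 0.985 over the 24 arrays.

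In SQ20B SERPINB7 was detected on all arrays at 6.95, 7.16 and 7.19 in resistant cells and 7.01, 6.94 and 7.09 in sensitive cells, which overlapped, at 0.09 ± 0.16 (adjusted p = 0.703). FaDu cells were near background, at 4.86, 4.82 and 4.77 in resistant cells (2 arrays detected) and 4.75, 4.75 and 5.49 in sensitive cells (1 detected). The FaDu change of -0.18 ± 0.16 was not called (adjusted p = 0.419). With median scaling, and again without resistant SQ20B replicate 1, the second SERPINB7 probe was called higher in SQ20B, at 0.38 (adjusted p = 0.0332) and 0.34 (adjusted p = 0.0247), where otherwise it stood at 0.16 ± 0.14 (adjusted p = 0.393).

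Whether the lines changed differently was tested within each table as the change in one line minus the change in the other. Between SCC-25 and Cal-27, 6 of 9 probes were called, beside 30.6% of all tested probes, and between FaDu and SQ20B 2 of 9, beside 30.6%. The largest difference was that of SERPINB13, whose change was 3.25 ± 0.19 higher in SCC-25 than in Cal-27 (adjusted p = 9.37e-08). SERPINB3 differed by 3.18 ± 0.27 (adjusted p = 2.27e-06), rising in SCC-25 and falling in Cal-27. The 6 called probes include SERPINB4, for which sensitive SCC-25 and resistant Cal-27 cells had no detected array and the groups that make the difference also brought the probe into the test. Its fitted difference of 2.19 is therefore given as a description, with no exact size. SERPINB8 differed the other way, by -1.80 ± 0.18 and -1.91 ± 0.23 on its probes (adjusted p = 7.82e-06 and 5.17e-05). SERPINB5 fell less in SCC-25, by a difference of 0.51 ± 0.13 (adjusted p = 0.0088), a call that was lost with median scaling (0.44, adjusted p = 0.0688). For SERPINB1 the difference of -0.34 ± 0.20 was not called (adjusted p = 0.238), and for SERPINB7 the differences of -0.35 ± 0.20 and -0.44 ± 0.22 were not called (adjusted p = 0.22 and 0.157). Without background correction 5 of the 6 called differences were smaller by more than 1.5 times, at 1.97 for SERPINB13, 1.53 for SERPINB3, 0.77 for SERPINB4 and -0.92 and -0.83 for the SERPINB8 probes. Both SERPINB7 differences were then called, at -0.36 and -0.32 (adjusted p = 0.0227 and 0.0176).

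FaDu and SQ20B parted at SERPINB13, by -2.04 ± 0.21 (adjusted p = 1.1e-05), and at SERPINB1, by -1.15 ± 0.14 (adjusted p = 5.63e-05). Both fell in FaDu and rose in SQ20B. The SERPINB5 changes differed by 0.01 ± 0.16 (adjusted p = 0.98). Counting genes by their brightest probe, 3 of 7 were called in opposite directions in SCC-25 and Cal-27 and 3 alike, where 5.65% of all 14077 genes were called in opposite directions and 7.15% alike. Those 3 opposite genes were SERPINB3, SERPINB4 and SERPINB8. The SERPINB3 and SERPINB4 probes may read each other's transcript, and SERPINB4 entered the test only through the groups in which it was high. The rise of SERPINB8 in Cal-27 was not called on its second probe. In FaDu and SQ20B 2 were called in opposite directions and 1 alike, beside 3.08% and 26.1% of all genes.

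**Figure D3:**
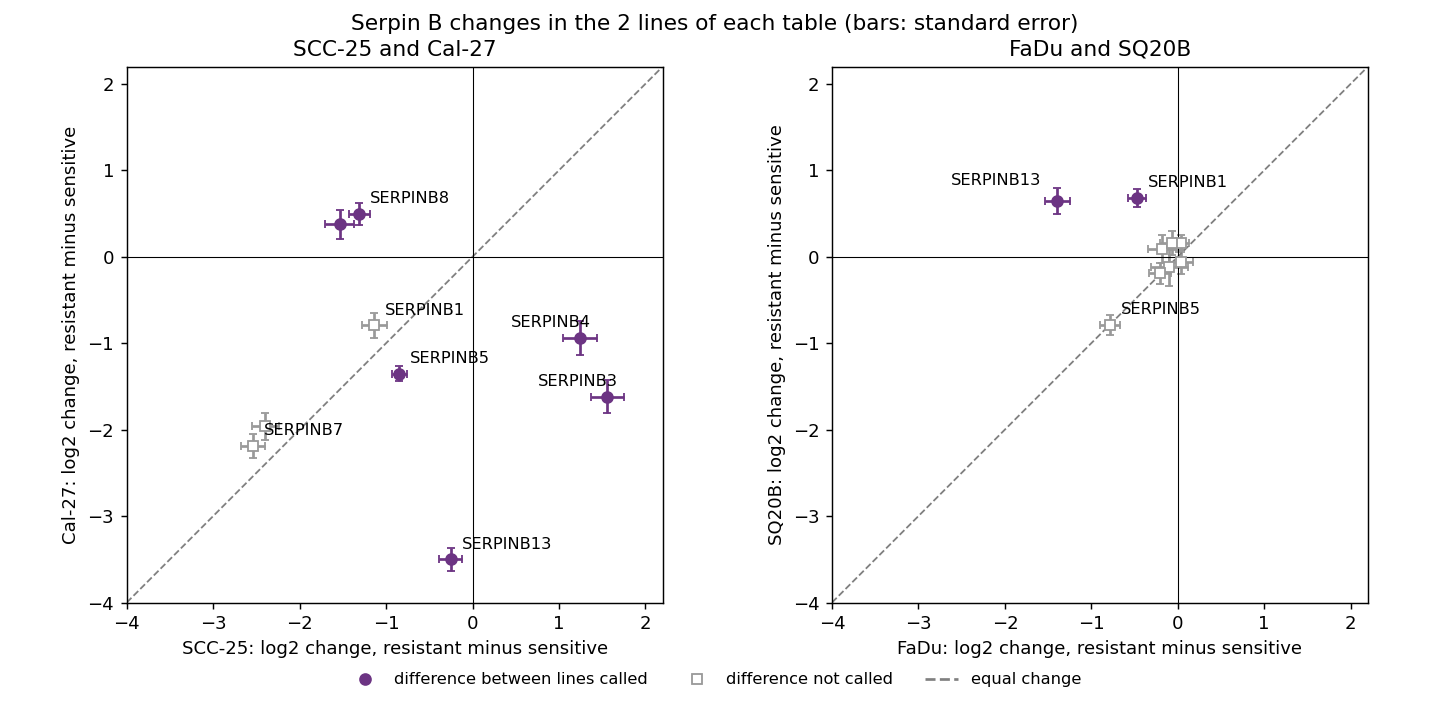
Log2 change, resistant minus sensitive, of the 9 tested probes in SCC-25 (horizontal) against Cal-27 (vertical) on the left, and in FaDu against SQ20B on the right, with bars for the standard error. Purple points have a called difference between the lines, 6 on the left and 2 on the right, SERPINB4 on the left has 2 groups with no detected array, and unlabelled points are second probes or members near 0.

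The parental lines themselves carried these serpins at different levels. All 9 tested probes differed between sensitive SCC-25 and sensitive Cal-27 cells, beside 53% of all probes. The 9 include SERPINB4, which was not detected in sensitive SCC-25 cells and entered the test partly through sensitive Cal-27 cells. On the log2 scale, sensitive SCC-25 minus sensitive Cal-27 cells, the difference was -2.88 ± 0.14 for SERPINB1 and 1.77 ± 0.09 for SERPINB5. SERPINB4, not detected in resistant Cal-27 cells, was among the 6 of 9 that differed between the resistant cultures of these lines, beside 56.7%. There SERPINB13 was 2.75 ± 0.14 higher in SCC-25 and SERPINB3 was 2.59 ± 0.19 higher, while in the parental cultures the same differences were -0.50 ± 0.14 and -0.59 ± 0.19, lower in SCC-25. SERPINB7 stood at 0.25 ± 0.14 between the resistant cultures, not called (adjusted p = 0.162), and at 0.60 ± 0.14 between the parental cultures (adjusted p = 0.003).

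In the other table, 7 of 9 probes differed between sensitive FaDu and sensitive SQ20B cells, beside 52.9%, and 6 of 9 between the resistant cultures, beside 56.5%. Both counts include the second probes of SERPINB7 and SERPINB8, which were not detected in FaDu. SERPINB1 was 1.05 ± 0.10 higher in sensitive FaDu than in sensitive SQ20B cells, and the resistant cultures, at -0.11 ± 0.10, were not called (adjusted p = 0.402). SERPINB7 was lower in FaDu than in SQ20B, with a difference of -2.28 ± 0.16 between the resistant cultures and -2.01 ± 0.16 between the parental cultures. SERPINB13 differed by -1.65 ± 0.15 between resistant FaDu and resistant SQ20B cells, lower in FaDu, and by 0.39 ± 0.15 between the parental cultures, higher in FaDu.

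Of the 7 members, 6 lie on chromosome 18 in the cluster of 10 clade B genes that runs SERPINB5, SERPINB12, SERPINB13, SERPINB4, SERPINB3, SERPINB11, SERPINB7, SERPINB2, SERPINB10 and SERPINB8, and SERPINB1 lies on chromosome 6 with SERPINB9 and SERPINB6. Neighbours in the cluster did not all change alike. In SCC-25 the adjoining pair SERPINB4 and SERPINB3 rose while SERPINB5 on one side and SERPINB7 and SERPINB8 on the other fell. In Cal-27 every member from SERPINB5 to SERPINB7 fell and SERPINB8, the last, rose. Over the 24 arrays, each centred on its table's mean, the highest correlations after SERPINB3 with SERPINB4 were SERPINB13 with SERPINB5 at 0.702 and SERPINB13 with SERPINB3 at 0.66. The lowest was SERPINB1 with SERPINB5 at -0.659, although both were lower in resistant SCC-25, Cal-27 and FaDu cells. The correlations also hold the level differences between lines, such as those of the parental cultures given above. They are descriptions over arrays that share lines and tables.

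AP-1 and STAT factors act below EGFR, so their motifs were searched in the 250 bases before each RefSeq start, on both strands. The AP-1 motif TGANTCA reads the same on both strands and occurred in 5 of the 9 windows of the 7 genes, those of SERPINB5, SERPINB13, SERPINB7 and SERPINB8, where 6.57% of all 35116 windows held it. The STAT motif TTCNNNGAA, also its own reverse complement, occurred in 3 of 9 windows, of SERPINB1, SERPINB7 and SERPINB8, and in 6.57% of all windows. The AP-1 match nearest to the start of each gene is shown with 16 bases on either side, plus strand, RefSeq GRCh38.p14, with the match in capitals, in the order SERPINB5 at chr18:63476796-63476834, SERPINB13 at chr18:63587240-63587278, SERPINB7 at chr18:63775363-63775401 and SERPINB8 at chr18:63970037-63970075:
SERPINB5: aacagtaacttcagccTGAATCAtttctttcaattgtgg
SERPINB13: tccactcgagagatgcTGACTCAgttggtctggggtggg
SERPINB7: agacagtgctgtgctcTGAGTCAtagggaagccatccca
SERPINB8: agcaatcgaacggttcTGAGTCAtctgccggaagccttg
The matches began 146, 87, 39 and 28 bases before the start of SERPINB5, SERPINB13, SERPINB7 and SERPINB8. The genes with a match were lower in resistant cells in 1 to 4 lines, and SERPINB8 and SERPINB13 were also higher in 1. Of the genes without a match, SERPINB1 was lower in 3 lines and higher in 1, and SERPINB3 and SERPINB4 were lower in 1 and higher in 1. The window pair of SERPINB3 and SERPINB4 held no match to these letters. A match describes letters only and was not tied to the changes.

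Genes outside the family that followed each member most closely over the 24 arrays were named by the highest Pearson correlation with its brightest probe, again centred by table. For SERPINB5 these were BNC1, a keratinocyte zinc finger protein, at 0.979 and PRXL2C at 0.971. SERPINB1 had RABEP1 at 0.952 and BSG, which encodes basigin, at 0.951. SERPINB7 had TPRXL at 0.935 and ENDOD1 at 0.929. SERPINB13 had the transcription factor gene TEAD2 at 0.902 and DSP, which encodes desmoplakin, at 0.891. SERPINB3 had TMEM98 at 0.903 and KIT at 0.874, SERPINB4 had PLXDC2 at 0.859 and FLVCR2 at 0.741, and SERPINB8 had ALG3 at 0.843 and CKAP4 at 0.837. The SERPINB3 probe was detected on 11 and the SERPINB4 probe on 6 of the 24 arrays. All these values are descriptions over arrays that share lines and tables, and each is the highest among all tested genes outside the family or next to it.

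Among the other clade B serpins 6 were listed, 4 had a probe and 1 was tested. At the background correction used, SERPINB9, the inhibitor of granzyme B, was at least 1.27-fold lower in resistant FaDu cells (log2 change -0.70 ± 0.22, adjusted p = 0.0238). It was not called in the other lines. Its probe was detected on all 3 arrays of sensitive FaDu cells, on 2 of 3 in resistant and in sensitive SQ20B cells, and on 1 of sensitive Cal-27 cells. SERPINB2 and SERPINB6 had no named probe and were not analysed here.

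Of 11 proteases that the members are known to inhibit, 5 were tested, namely CTSK, CTSL, CTSS, CTSV and FURIN. The granule proteases ELANE, PRTN3, CTSG, CMA1, GZMH and GZMM, made by leukocytes, were detected on too few arrays. In SCC-25, 4 of the 5 fell and 0 rose, where by brightest probe 15% of genes were lower and 14.7% higher. Cal-27 had 1 lower and 0 higher, beside 32.7% of genes called (16.8% lower, 16% higher), FaDu 1 lower and 1 higher, beside 40%, and SQ20B 1 lower and 2 higher, beside 53.5%. CTSV, the cathepsin of stratified epithelium and thymus, fell in every line. It read 10.44, 10.47 and 10.40 in resistant SCC-25 cells and 11.47, 11.22 and 11.35 in sensitive SCC-25 cells, and fell by 0.92 ± 0.09. Elsewhere CTSV fell by 1.00 ± 0.09 in Cal-27 (adjusted p = 1.63e-06), fell by 0.39 ± 0.09 in FaDu (adjusted p = 0.00478) and fell by 1.42 ± 0.09 in SQ20B (adjusted p = 5.88e-08). CTSK, a collagen-degrading cathepsin, fell by 1.67 ± 0.16 in SCC-25 and rose by 0.56 ± 0.16 in SQ20B. CTSS was at least 1.80-fold higher in resistant FaDu cells at the background correction used (log2 change 1.29 ± 0.10, adjusted p = 7.07e-07). It was detected on those 3 arrays and on 1 of resistant Cal-27 cells, so it entered the test through the group in which it was high. FURIN fell by 1.00 ± 0.14 in SCC-25 (adjusted p = 0.000173), the line in which SERPINB8 also fell.

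Other epithelial protease inhibitors, of the cystatin, WAP, Kazal and Kunitz families, were counted from a list of 17 genes, of which 12 were tested. In SCC-25, 5 rose and 2 fell, beside 29.7% of genes called, and in Cal-27, 4 rose and 3 fell, beside 32.7%. FaDu had 8 higher and 0 lower, with 20.2% of genes higher and 19.8% lower, and SQ20B 7 higher and 0 lower, with 28.1% higher and 25.4% lower. The median log2 change of the 12 genes was 0.29 for SCC-25, 0.11 for Cal-27 and 0.43 for both FaDu and SQ20B, where all genes had medians within 0.02 of 0. CST6, the gene of cystatin M/E, which inhibits cathepsins L and V, rose in all 4 lines, by 1.88 ± 0.16 for SCC-25, 1.87 ± 0.16 for Cal-27, 2.87 ± 0.14 for FaDu and 0.78 ± 0.14 for SQ20B. WFDC2, a WAP-domain protein also known as HE4, rose by 1.52 ± 0.20 in SCC-25, where 1 of 3 arrays of sensitive cells detected it. For Cal-27 the rise of WFDC2 was 1.92 ± 0.20, and for SQ20B it was 2.13 ± 0.14. At the background correction used, the gene was at least 13.8-fold higher in resistant FaDu cells, where sensitive cells had no detected array. No value without this correction is given for WFDC2. SPINK6, a kallikrein inhibitor of skin, rose by 3.33 ± 0.34 in SCC-25 and was undetected on every array of the other lines. It read 9.32, 8.94 and 8.66 in resistant SCC-25 cells and 6.76, 5.04 and 5.12 in sensitive SCC-25 cells, which spread widely. Only the brighter of its 2 tested probes is given. PI3, which encodes the elastase inhibitor elafin, fell by 3.11 ± 0.43 in Cal-27 and rose by 0.45 ± 0.11 in FaDu. In SCC-25 PI3 stood at 1.13 ± 0.43, not called (adjusted p = 0.0665), with 7.10, 6.43 and 6.54 in resistant cells and 6.84, 5.14 and 4.70 in sensitive cells, and in SQ20B it was not detected.

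**Figure D4:**
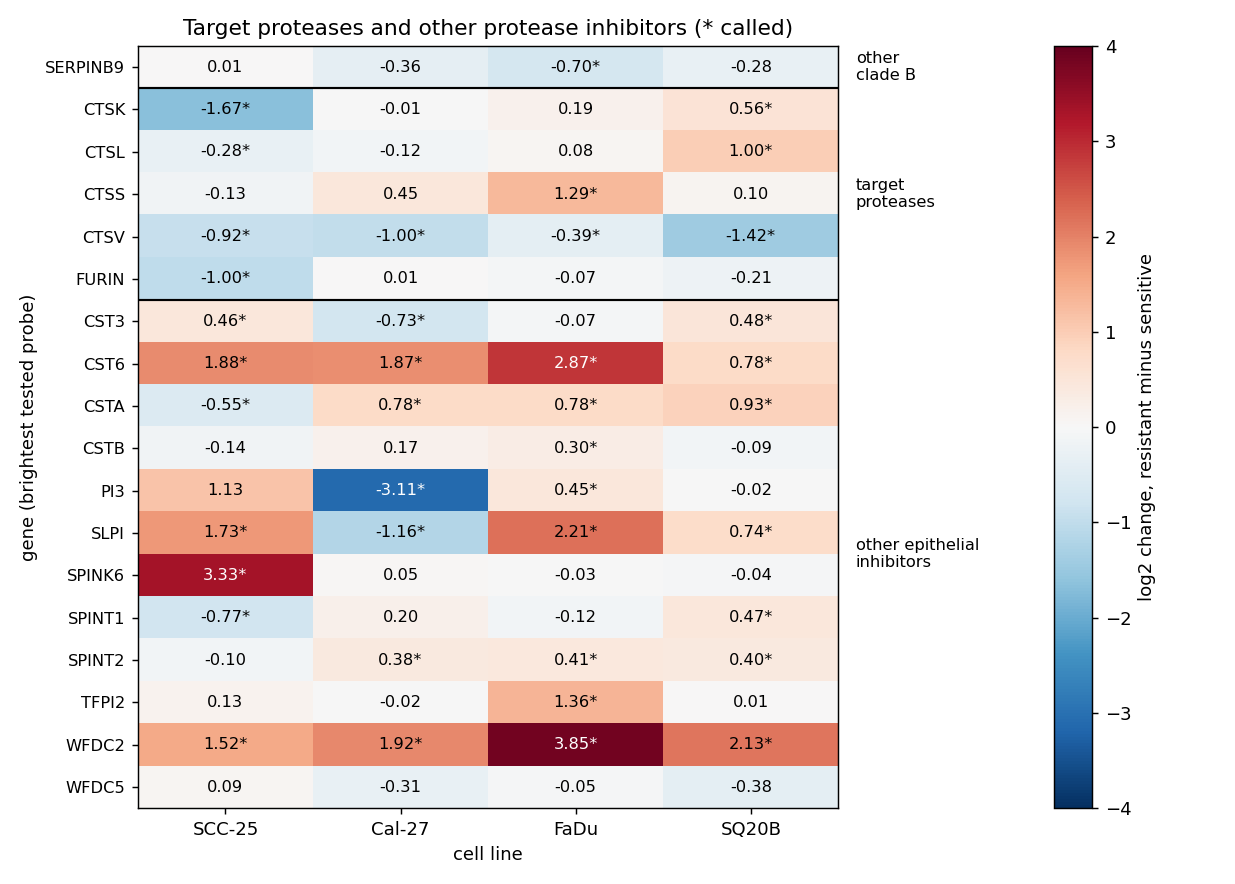
Log2 change, resistant minus sensitive, of the 18 tested genes around the family (rows, brightest probe) in the 4 lines (columns), from blue for lower to red for higher, with an asterisk where called. CTSV is lower and CST6 and WFDC2 are higher in resistant cells of all 4 lines.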

How the data were processed

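Total RNA of 24 cultures or replicate arrays in 8 groups was measured on Illumina expression beadchips, with groups taken from the sample titles. The members and the gene lists were chosen with earlier results of these data known. Bead intensity values were deposited by the authors on a linear scale in 2 tables of 12 arrays, without normalization, as the values show, each with a detection p-value in steps set by 770 control beads. Per the submitters' processing notes, GenomeStudio was used (version not given in the sources used here). Processed intensity values deposited by the authors, with medians of 8.60 to 8.63 in SCC-25 and Cal-27 and 7.26 to 7.30 in FaDu and SQ20B and in part negative, served as an alternative. Their scale is linear, and nothing states how they were normalized.

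The neqc function of limma 3.58.1 (R 4.3.3) corrected background from the detection p-values with an offset of 16, followed by quantile normalization and log2 within each table. Of 47231 probes, 30113 had 1 gene symbol, 8 several and 17110 none in the platform annotation. A probe was tested when it had 1 symbol and a detection p under 0.05 on at least 3 of 24 arrays. The 4 groups of a table were fitted together with lmFit and eBayes (8 residual degrees of freedom), and p-values were adjusted by Benjamini-Hochberg over 19171 probes. All tests are two-sided. The fit was tested on simulated data. Gene lists were counted on the brightest tested probe of each of 14077 genes. Named were all members, up to 4 called genes of each list with the largest change, and the 2 genes most correlated with each member. Where a whole group of 3 arrays left a probe undetected, its fold is given only as a bound, beside the fitted log2 change. Each bound holds only at the background correction used, and without that correction a change can be smaller than its bound. Promoter windows came from RefSeq GRCh38.p14, which held 9 windows for the 7 genes. Replicate numbers did not pair the samples: same-numbered arrays deviated from their group means with correlations of -0.07 to 0.08, and 0 of 12 exceeded 0.1. The number of arrays limits the precision.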

Additional observations from a re-analysis of the deposited data

Results flagged for a closer look

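Of 18 tests of whether a member's change differed between 2 lines of a table, 8 were called, 6 of 9 probes between SCC-25 and Cal-27 and 2 of 9 between FaDu and SQ20B, beside 30.6% of all tested probes in either pair. The probes include 2 of SERPINB8. Each difference is the first line's change minus the second's. SERPINB13 differed by 3.25 between SCC-25 and Cal-27 and by -2.04 between FaDu and SQ20B. SERPINB3 and SERPINB4 differed by 3.18 and 2.19 between SCC-25 and Cal-27, but resistant Cal-27 and sensitive SCC-25 cells had no detected SERPINB4 array, so that the SERPINB4 value has no exact size (0.77 without background correction). SERPINB8 differed by -1.80 and -1.91 on its probes in the same pair of lines. SERPINB1 differed by -1.15 between FaDu and SQ20B. SERPINB5 differed by 0.51 between SCC-25 and Cal-27, and fell in resistant cells of both.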

How the results depend on the processing

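Of 30 called member results, 29 kept their direction and call under every alternative run, and the exception was the SERPINB5 difference of SCC-25 against Cal-27, not called with median scaling (0.44, adjusted p = 0.0688). The cause was not tested. Of 24 results not called, 20 were called under no alternative. The others were the SERPINB7 differences between SCC-25 and Cal-27, called without background correction (-0.36 and -0.32), with normexp and an offset of 50 (-0.38 and -0.37) and, on ILMN_2395139, without resistant SCC-25 replicate 2 (-0.60). SERPINB8 on ILMN_2397028 was called lower in resistant FaDu cells in the authors' processed values (-0.69, adjusted p = 0.0357), and SERPINB7 on ILMN_2395139 was called higher in resistant SQ20B cells with median scaling (0.38) and without resistant SQ20B replicate 1 (0.34). With 1 array left out in turn, the probes called numbered 8 for SCC-25, 8 for Cal-27, 3 for FaDu, 3 to 4 for SQ20B, 6 to 7 for SCC-25 against Cal-27 and 2 for FaDu against SQ20B. With the replicate number as a replicate block the counts were 8, 8, 3, 3, 6 and 2, as without it. Median scaling lowered the share of higher calls over all probes to 37.1% from 51.2% for SCC-25 against Cal-27 and to 34.6% from 50.7% for FaDu against SQ20B. In both, the majority of calls thereby turned. In Cal-27 median scaling raised that share to 55.1% in place of 47.6%, where the majority turned as well, and in SQ20B to 57.2% in place of 50.1%. Near background lay SERPINB3 in resistant Cal-27 cells and all FaDu and SQ20B cells, SERPINB4 outside resistant SCC-25 and sensitive Cal-27 cells, and SERPINB7 and SERPINB8 in FaDu, where intensity limits any fold. Low but detected on all arrays of the group was, among others, SERPINB13 in resistant Cal-27 cells (5.48 to 5.67). So was SERPINB7 on ILMN_2395139 in resistant SCC-25 cells (5.03 to 5.76) and resistant Cal-27 cells (5.26 to 5.44). The size of these falls also depends on the background correction. The beadchip as a block was not run, since the columns name no chip.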
